A study of Mus musculus with 9 samples.

Results

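The tripartite motif (TRIM) genes described here are all genes of the deposited count table whose symbol begins with Trim followed by a digit, which gave 53 of the 16200 genes listed. Of these, 43 passed a filter on low counts that kept 12587 genes, 38 of them averaged at least 1 CPM (a count scaled to a common library size) over the 9 libraries and are called well measured here, and 10 did not pass. The cells were wild-type (WT) mouse bone marrow-derived macrophages, grown from marrow for 6 days with 10% L929 supernatant as a source of macrophage growth factor, and polyA RNA was sequenced. One set of cells was given IL-27 at 100 ng/ml over 6 h, another IL-4 at 20 ng/ml over 12 h, and the rest were left untreated, with 3 libraries per group. Both are interleukins, secreted signals between immune cells. Whether IL-4 was also present in the IL-27 cultures is open in the labels, and dose and time differ between the cytokines, so a difference between IL-27 and IL-4 libraries cannot be told apart from a difference in dose or time. The labels name no animal or culture of origin for a library, so each p-value reflects library-to-library spread alone, and that spread could be technical. In RNA from whole cultures, fewer cells of a type and less RNA per cell cannot be told apart.

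Most TRIM proteins carry a RING domain, B-box domains and a coiled coil, and act as ubiquitin ligases that dimerise through the coiled coil, while the end of the protein sets what is bound. Many are known from antiviral defence, where they restrict viruses directly or place ubiquitin on sensors of foreign RNA and DNA and on their adaptors, and many of these are induced by interferons. Others repress chromatin, hold to microtubules or sit in internal membranes. In macrophages IL-4 signals chiefly through STAT6.

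The libraries held 34577188 to 37951827 counts, of which 0.131% to 0.147% fell on TRIM genes. All 8 macrophage markers examined were expressed, with a summed level of 24262 to 26336 CPM in IL-27, 14504 to 18107 CPM in IL-4 and 23087 to 31788 CPM in untreated libraries, most of it Lyz2. Of these 8 markers, 5 were called lower under IL-27 than in untreated cells (Csf1r, Mertk, Cd14, Adgre1 and Fcgr1) and 4 were called lower under IL-4 (Lyz2, Cd14, Fcgr1 and Mertk), with none called higher. Over all genes tested 15.1% were lower under IL-27 and 12.0% under IL-4. Without IL-4 replicate 1 and untreated replicate 2, which are described below, the marker counts were 2 higher and 6 lower under IL-27, and 1 higher and 6 lower under IL-4. Of all genes, 49.5% and 46.4% were then called in either direction. The 4 fibroblast markers summed to 1025 to 1273 CPM in IL-27, 500 to 704 CPM in IL-4 and 667 to 760 CPM in untreated libraries. Of them, 3 of 4 were called higher under IL-27 than in untreated cells, beside 14.0% of all genes. All 4 were higher under IL-27 than under IL-4, beside 18.8% of all genes, and 0 were called under IL-4 against untreated. Without the same 2 libraries, 3 were higher under IL-27 and 4 lower under IL-4 than in untreated cells, where 49.5% and 46.4% of all genes were called. Of the 4 neutrophil markers in the table, S100a8 averaged 8.32, 2.28 and 4.09 CPM in IL-27, IL-4 and untreated libraries. S100a9 averaged 0.0273, 0.154 and 0.152 CPM in the same order, and Elane and Mpo were at or near 0. Cd4 gave nearly all of the T cell marker sum, with Cd3d, Cd3e and Cd8a at or near 0, and markers of B cells, dendritic cells, red cells, mast cells and muscle summed to at most 1.47 CPM. The part of these other cells in the TRIM results was not tested.

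IL-4 replicate 1 and untreated replicate 2 were unlike the other libraries of their groups, and are called the pair below. Across the 38 well-measured TRIM genes, deviations from the group mean in these 2 libraries correlated at r = 0.814, and across the 12587 genes tested at r = 0.590. TRIM genes with transcripts rich in G and C were read high in both and those poor in G and C low, with Spearman correlations between deviation and GC content of 0.802 in IL-4 replicate 1 and 0.748 in untreated replicate 2. In the 3 IL-27 libraries the same correlation was -0.137 to 0.0553. In IL-4 replicates 2 and 3 and untreated replicates 1 and 3 it was negative, at -0.672 to -0.5175. Their deviations are from group means that include the pair, so those negative values do not stand apart from it. These correlations are descriptions across genes, which share libraries and are not independent. The lowest deviations were -1.12 log2 for Trim17 in IL-4 replicate 1 and -0.78 log2 for Trim59 in untreated replicate 2, and Trim3 was the highest at 0.51 and 0.43 log2. Both libraries stayed in the tests, and the counts of called TRIM genes are also given without them. Those fits have 1 library fewer in each of the IL-4 and untreated groups. The pair was set apart for deviating, so leaving it out narrows the spread and lowers p-values by that choice alone. A call gained only without the pair is therefore a description and not support for a difference.

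**Figure D1:**
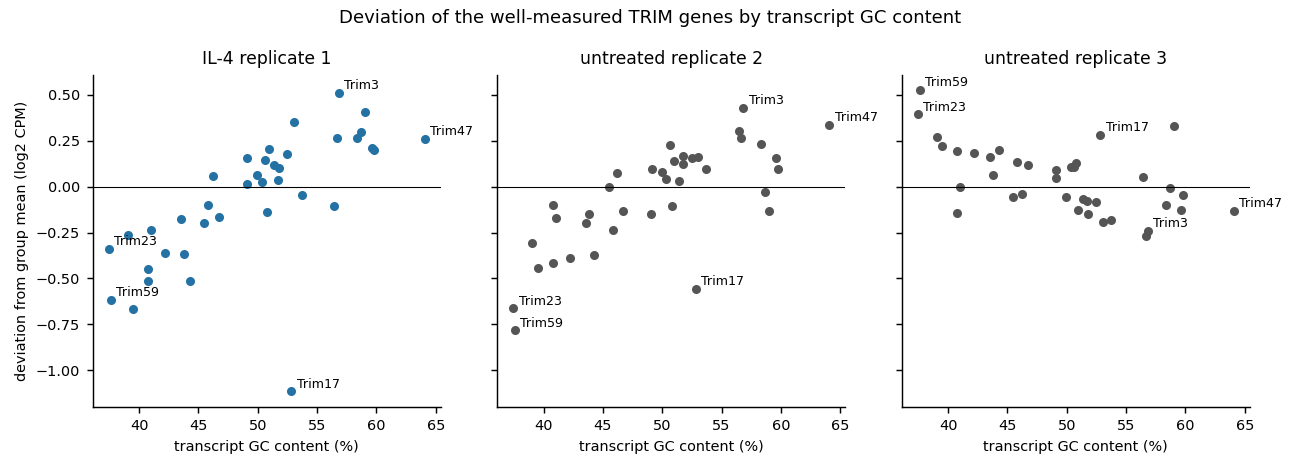
Deviation of each of the 38 well-measured TRIM genes from its group mean (log2 CPM, vertical axis) by GC content of its transcript (percent, horizontal axis), in IL-4 replicate 1, untreated replicate 2 and, for contrast, untreated replicate 3. Deviation climbs with GC content in the first 2 panels (Spearman 0.802 and 0.748), and Trim17 and Trim59 are among the lowest in both. It falls with GC content in untreated replicate 3 (Spearman -0.5765), whose group mean includes untreated replicate 2.

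A few genes made up much of the TRIM message. Scaled by gene length (FPKM), Trim35, Trim28, Trim8 and Trim25 were the 4 highest in every library. Together they held 47.0 ± 0.303% of the summed TRIM FPKM in IL-27, 45.1 ± 2.28% in IL-4 and 40.2 ± 1.44% in untreated libraries (SD, n = 3 each). The order at the top differed: Trim35 was first in the 3 IL-27 libraries and Trim28 in the other 6. Trim35 stood at 68.2 ± 2.28 FPKM in IL-27, 46.0 ± 2.49 FPKM in IL-4 and 34.7 ± 0.920 FPKM in untreated libraries. Trim28 stood at 41.8 ± 0.764, 57.6 ± 3.98 and 46.1 ± 2.09 FPKM in the same groups. Trim41, Trim44, Trim26, Trim14 and Trim47 came next, at group means of 8.37 to 21.5 FPKM, and the lowest of the well-measured genes was Trim2, at 0.168, 0.124 and 0.147 FPKM in IL-27, IL-4 and untreated libraries. The summed TRIM level was 332 ± 4.52 FPKM in IL-27, 362 ± 6.63 FPKM in IL-4 and 354 ± 9.99 FPKM in untreated libraries.

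**Figure D2:**
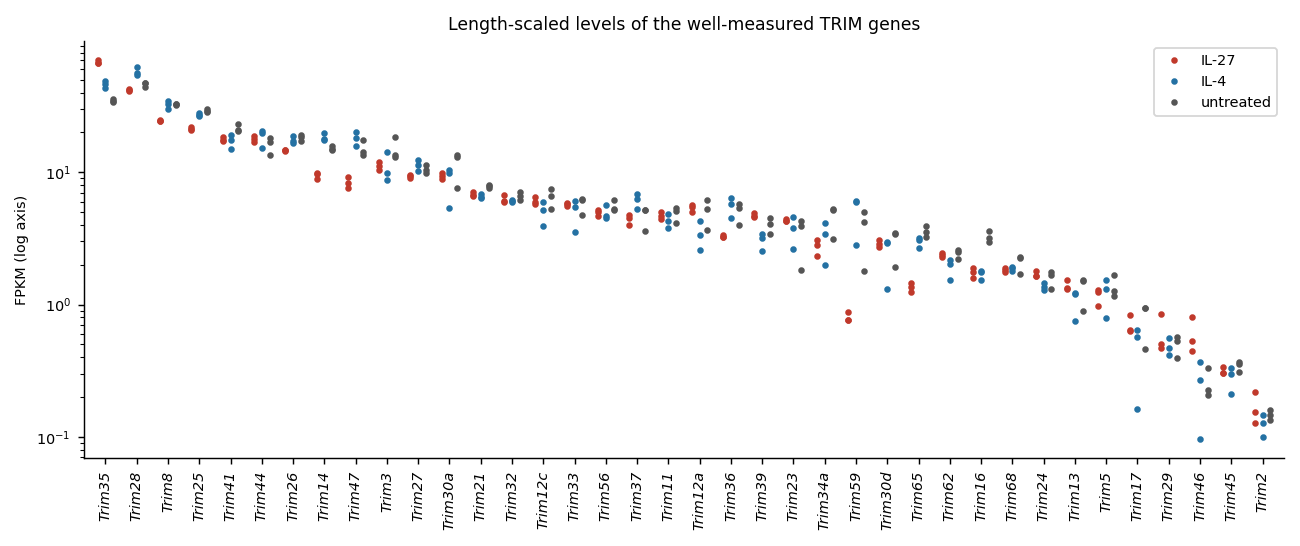
Length-scaled level (FPKM, log axis) of the 38 well-measured TRIM genes in each of the 9 libraries, ordered by their mean over the 3 groups, with IL-27 points left of IL-4 and untreated points. Trim35 and Trim28 lie at the top, at 34.7 to 68.2 FPKM as group means, and the IL-27 points of Trim59 and of Trim65 lie below all their other points.

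Of the 43 TRIM genes tested, 10 differed between IL-27 and untreated libraries at an edgeR quasi-likelihood adjusted p under 0.05, 1 higher (Trim35) and 9 lower (Trim8, Trim14, Trim16, Trim25, Trim30c, Trim36, Trim47, Trim59 and Trim65). That is 23.3%, beside 29.2% of all genes tested (14.0% higher and 15.1% lower). Among the 38 well-measured genes, which leave out Trim30c, 1 was higher and 8 lower, or 23.7%. The median log2 fold change of the 43 was -0.12, against 0.00 over all genes, and the median size was 0.21 against 0.33. Without IL-4 replicate 1 and untreated replicate 2 the counts were 2 higher and 12 lower, with 49.5% of all genes called, and the 10 genes above were among them.

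Under IL-4, 6 of the 43 were called against untreated cells, 1 higher (Trim35) and 5 lower (Trim12a, Trim16, Trim21, Trim30c and Trim39). That is 14.0%, beside 25.0% of all genes tested (12.9% higher and 12.0% lower). Among the 38 well-measured genes, which leave out Trim30c, 1 was higher and 4 lower, or 13.2%. The median log2 fold change of the 43 was -0.25, against -0.01 over all genes, and the median size was 0.29 in both. These counts depended on the libraries. Without IL-4 replicate 1 and untreated replicate 2 they came to 7 higher and 13 lower, the 6 genes above included, while 46.4% of all genes were then called. Leaving out 1 library at a time, the higher count was 3 without untreated replicate 2 and 0 without untreated replicate 1 or 3, or replicate 3 of either cytokine. The lower count was 7 without IL-4 replicate 1, 2 without untreated replicate 1, and 3 without untreated replicate 3, IL-4 replicate 2 or 3, or any IL-27 library. Of all genes, 28.7% were called without IL-4 replicate 1 and 25.5% without untreated replicate 2. The share was 18.1% to 21.1% without any one of the other libraries.

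Between the cytokines, 14 of the 43 were called, 5 higher under IL-27 than under IL-4 (Trim12a, Trim24, Trim35, Trim39 and Trim46) and 9 lower (Trim8, Trim14, Trim25, Trim28, Trim36, Trim37, Trim47, Trim59 and Trim65). That is 32.6%, beside 39.8% of all genes tested (18.8% higher and 21.0% lower). The median log2 fold change was 0.11, against 0.01 over all genes, and the median size was 0.37 against 0.39. Without IL-4 replicate 1 and untreated replicate 2 the counts were 10 higher and 10 lower, with 58.3% of all genes called, and the 14 genes above were among them. The higher count was 3 without any one of the IL-27 libraries, and the lower count was 6 without IL-27 replicate 1. In these fits 30.3% to 30.4% of all genes were called. The 3 comparisons share libraries, so a gene called in more than 1 of them is not counted as independent evidence.

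**Figure D3:**
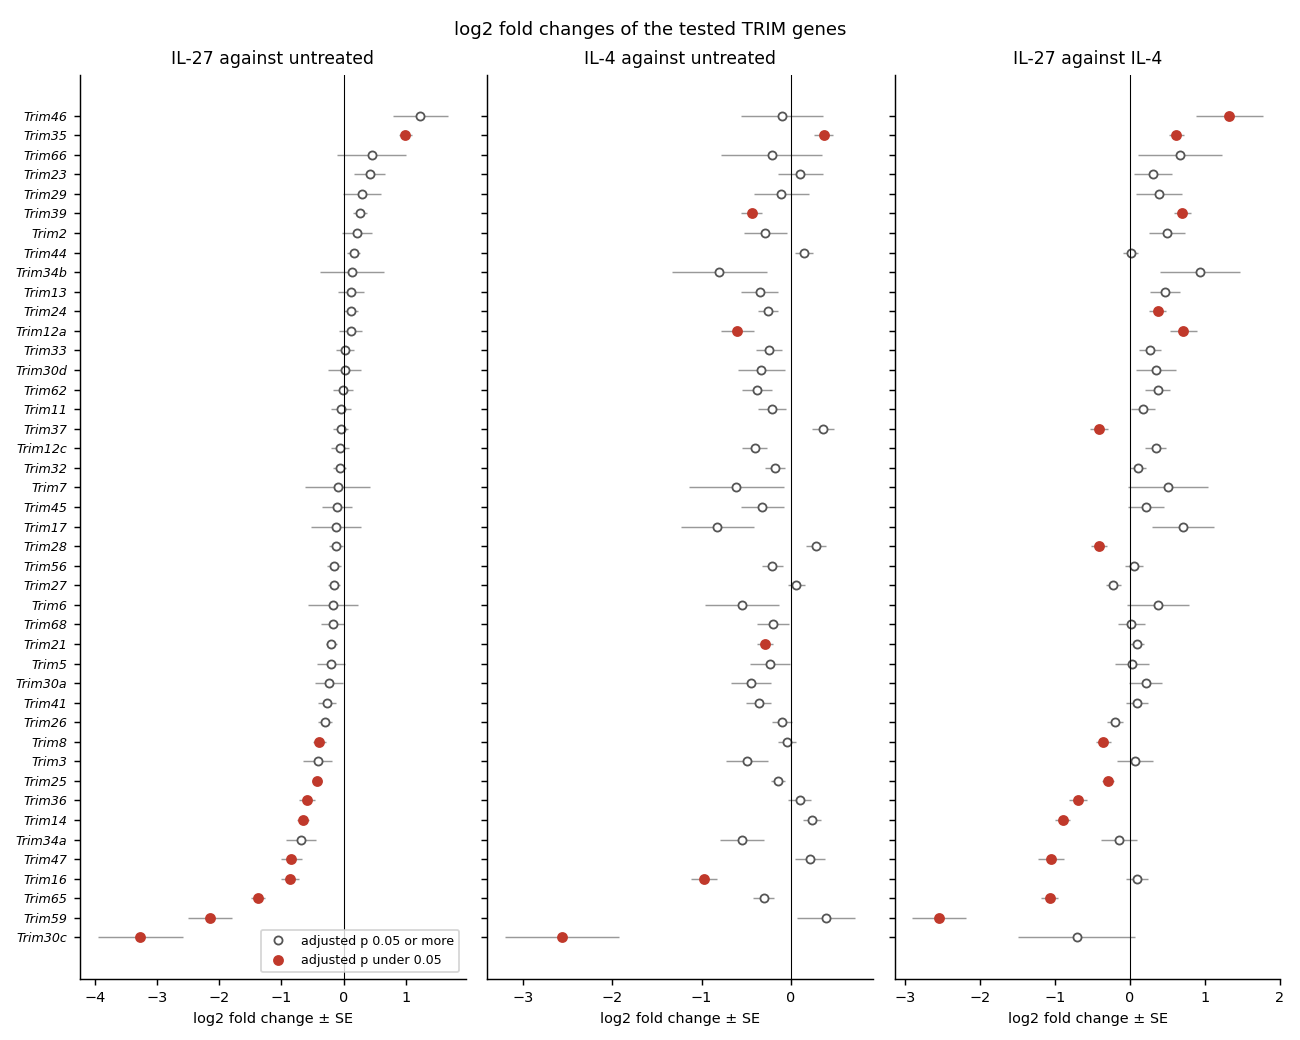
Log2 fold change ± SE of the 43 tested TRIM genes for IL-27 against untreated, IL-4 against untreated and IL-27 against IL-4 libraries, with filled points for an adjusted p under 0.05, ordered by the first panel. Trim35 is filled to the right of 0 in each panel, and Trim59 and Trim65 lie far to the left wherever IL-27 is the tested group.

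Trim35, a RING ligase also known as hemopoietic lineage switch 5 and linked to macrophage maturation, was the gene called higher under each cytokine. It was read at 248, 255 and 264 CPM in IL-27 libraries, 187, 152 and 159.6 CPM in IL-4 libraries and 122, 143 and 121 CPM in untreated libraries. All IL-27 values lay above all IL-4 values, and these above all untreated values. Under IL-27 it rose 1.99-fold over untreated (log2 0.99 ± 0.10, edgeR adjusted p = 8.96e-05) and 1.54-fold over IL-4 (log2 0.62 ± 0.10, adjusted p = 0.000975). The rise under IL-4 was 1.29-fold (log2 0.37 ± 0.10, adjusted p = 0.0273). That call did not hold without untreated replicate 1 or 3, IL-4 replicate 1 or 3, or IL-27 replicate 3 (adjusted p 0.0521 to 0.0974), or with the 6 libraries of the 2 groups alone (0.0777). Of the summed TRIM FPKM, Trim35 took 20.6 ± 0.469% in IL-27, 12.7 ± 0.672% in IL-4 and 9.79 ± 0.522% in untreated libraries (SD, n = 3 each).

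The sensing and antiviral genes are a list of 17 tested members that act on RNA and DNA sensors, their adaptors or viral proteins. In it, 1 was higher, 4 lower and 12 did not pass under IL-27 against untreated, with a median log2 fold change of -0.16 beside 0.00 over all genes, of which 14.0% were higher and 15.1% lower. Under IL-4, 1 was higher, 1 lower and 15 did not pass, with a median of -0.18 beside -0.01 over all genes, of which 12.9% were higher and 12.0% lower. Trim35 is a member and is the one counted higher. Without IL-4 replicate 1 and untreated replicate 2 the counts were 1 higher and 5 lower under IL-27, where 49.5% of all genes were called, and 2 higher and 4 lower under IL-4, where 46.4% were.

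Trim65, which ubiquitinates the RNA sensor MDA5 (Ifih1), was at 9.63, 10.4 and 8.81 CPM in IL-27 libraries, 19.5, 20.8 and 20.1 CPM in IL-4 libraries and 26.3, 26.6 and 21.8 CPM in untreated libraries. The 3 groups did not overlap. It fell 2.59-fold under IL-27 against untreated (log2 -1.38 ± 0.12, edgeR adjusted p = 2.18e-05) and 2.10-fold against IL-4 (log2 -1.07 ± 0.12, adjusted p = 5.81e-05). Under IL-4 the log2 difference of -0.31 ± 0.11 from untreated did not pass (adjusted p = 0.0795), but did without untreated replicate 3 (log2 -0.39, adjusted p = 0.0494). Its transcripts overlap those of its neighbour Trim47 on the same strand over 3.82% of its exon bases.

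Trim14, which lacks a RING domain and has been described in human cells as a mitochondrial partner of the adaptor MAVS, was at 35.5, 32.6 and 34.5 CPM in IL-27, 65.2, 60.2 and 65.8 CPM in IL-4 and 50.6, 60.5 and 50.9 CPM in untreated libraries. Each IL-27 value lay below every other, while IL-4 and untreated values overlapped. It fell 1.58-fold under IL-27 against untreated (log2 -0.66 ± 0.10, adjusted p = 0.000811) and 1.86-fold against IL-4 (log2 -0.90 ± 0.10, adjusted p = 6.28e-05). Under IL-4 it did not pass (log2 0.24 ± 0.10, adjusted p = 0.107), but did without untreated replicate 2 (log2 0.33, adjusted p = 0.0270) and without the pair (log2 0.31, adjusted p = 0.000965). Over 38.0% of its exon bases Trim14 is overlapped on the opposite strand by other gene models, Nans among them, and without a stated counting strand its level is uncertain. Nans, a sialic acid synthase, averaged 52.7 ± 5.35 CPM in IL-27, 92.1 ± 26.1 CPM in IL-4 and 67.2 ± 14.8 CPM in untreated libraries. It was lower under IL-27 than under IL-4 (log2 -0.80 ± 0.21, adjusted p = 0.0112), a call that did not hold without IL-27 replicate 3 (adjusted p = 0.0512).

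Trim25, the ligase of the RNA sensor RIG-I (Ddx58) and a cofactor of the zinc-finger antiviral protein (Zc3hav1), was at 118, 122 and 125 CPM in IL-27, 155, 148 and 143 CPM in IL-4 and 162, 173 and 157 CPM in untreated libraries. The 3 groups did not overlap. Against untreated it fell 1.35-fold under IL-27 (log2 -0.43 ± 0.08, adjusted p = 0.00238), and against IL-4 1.22-fold (log2 -0.29 ± 0.08, adjusted p = 0.0144), the second call being lost without IL-27 replicate 1 (adjusted p = 0.0652). Under IL-4 it did not pass (log2 -0.14 ± 0.08, adjusted p = 0.218), but did without the pair (log2 -0.13, adjusted p = 0.0444).

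Trim8, which binds the cytokine signalling inhibitor SOCS1, was at 92.2, 93.7 and 93.2 CPM in IL-27, 136, 107 and 114 CPM in IL-4 and 118, 130.4 and 118 CPM in untreated libraries. IL-27 values were the lowest, and IL-4 and untreated values overlapped. Trim8 fell 1.31-fold under IL-27 against untreated (log2 -0.39 ± 0.10, adjusted p = 0.0158) and 1.28-fold against IL-4 (log2 -0.35 ± 0.10, adjusted p = 0.0189). Neither call held without any one of the IL-27 libraries, at an adjusted p of 0.0541 to 0.0600 against untreated and 0.0577 to 0.0647 against IL-4. The log2 difference under IL-4 was -0.04 ± 0.10 (adjusted p = 0.829).

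Trim21, the cytosolic receptor for antibodies bound to viruses, was at 18.9, 18.9 and 19.9 CPM in IL-27, 18.8, 18.2 and 17.1 CPM in IL-4 and 21.5, 23.2 and 21.5 CPM in untreated libraries. Untreated values were the highest. The IL-4 fall of 1.22-fold passed narrowly (log2 -0.29 ± 0.09, adjusted p = 0.0476) and was lost on leaving out any library but IL-4 replicate 1 (adjusted p 0.0783 to 0.151), with no filter on low counts (0.0898) and with the 2 groups alone (0.126). Under IL-27 the log2 difference of -0.20 ± 0.09 did not pass (adjusted p = 0.145).

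Other members of the list did not pass against untreated under either cytokine with all libraries. Trim56, linked to the DNA-sensing adaptor STING, averaged 19.2 ± 0.914 CPM in IL-27, 18.5 ± 1.96 CPM in IL-4 and 21.4 ± 1.93 CPM in untreated libraries, with library values of 18.2 to 20.0, 16.5 to 20.4 and 19.2 to 23.0 CPM that overlapped (adjusted p = 0.357 for IL-27 and 0.231 for IL-4). Trim27 was at 40.1, 42.8 and 41.2 CPM in IL-27, 52.0, 42.3 and 50.4 CPM in IL-4 and 47.4, 47.1 and 44.0 CPM in untreated libraries. Its IL-27 values lay below the untreated ones without passing (log2 -0.16 ± 0.10, adjusted p = 0.265). Against IL-4 its log2 difference of -0.22 ± 0.10 did not pass (adjusted p = 0.105), but did without IL-4 replicate 2 (log2 -0.31, adjusted p = 0.0325). Trim26 averaged 48.6 ± 0.174 CPM in IL-27, 55.7 ± 7.11 CPM in IL-4 and 59.6 ± 5.51 CPM in untreated libraries (log2 -0.30 ± 0.11 for IL-27 against untreated, adjusted p = 0.0699). This difference passed with DESeq2, with the 2 groups alone, and without IL-4 replicate 1 or the pair.

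Trim32, an NHL-repeat ligase whose human counterpart is mutated in a limb-girdle muscular dystrophy, was at 25.2, 23.0 and 22.2 CPM in IL-27, 23.3, 20.7 and 21.2 CPM in IL-4 and 24.9, 26.7 and 22.1 CPM in untreated libraries. The groups overlapped, and no comparison passed (adjusted p 0.278 to 0.689). The other NHL-repeat genes tested, Trim2 and Trim3, did not pass either. The list of 3 had median log2 fold changes of -0.07 under IL-27 and -0.29 under IL-4 against untreated, beside 0.00 and -0.01 over all genes. Of all genes, 29.2% and 25.0% were called in these comparisons. Trim3 was among the genes that IL-4 replicate 1 and untreated replicate 2 read highest, at 34.4, 37.5 and 40.0 CPM in IL-27, 49.0, 27.0 and 30.6 CPM in IL-4 and 42.7, 65.6 and 41.2 CPM in untreated libraries. With all libraries its log2 values were -0.49 under IL-4 against untreated and 0.07 between the cytokines (adjusted p = 0.167 and 0.837). Without the pair it was called lower under IL-4 than in untreated cells (log2 -0.54, adjusted p = 1.65e-05) and higher under IL-27 than under IL-4 (log2 0.36, adjusted p = 0.000431). It was then the 1 NHL-repeat gene of 3 called under IL-4 against untreated, where 46.4% of all genes were called. Under IL-27 0 of 3 were called, where 49.5% of all genes were.

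On mouse chromosome 7 the genes Trim6, Trim34a, Trim5, Trim12a, Trim34b, Trim12c, Trim30b, Trim30c, Trim30a and Trim30d lie next to each other with a few other gene models between them. They belong to the group that holds the retrovirus restriction factor TRIM5-alpha of primates. Of the 9 tested, 0 were higher, 1 was lower (Trim30c) and 8 did not pass under IL-27 against untreated, with a median log2 fold change of -0.17 beside 0.00 over all genes, of which 14.0% were higher and 15.1% lower. Under IL-4, 0 were higher, 2 were lower (Trim12a and Trim30c) and 7 did not pass, with a median of -0.55 beside -0.01 over all genes, of which 12.9% were higher and 12.0% lower. Trim30c, with few reads, passed the filter only through its untreated libraries. Without IL-4 replicate 1 and untreated replicate 2, 3 were lower under IL-27 and 5 under IL-4, with medians of -0.27 and -0.49, where 49.5% and 46.4% of all genes were called. Close copies in the group can split or share reads: of the stretches of 50 bases in their transcripts, 59.0% in Trim34b, 41.3% in Trim34a, 38.1% in Trim5 and 32.2% in Trim12c also occur in another gene, so the level of each is uncertain.

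Start sites are shown because 6 of the 9 tested genes of this group hold an element that most genes lack. Trim6, Trim30c and Trim34b do not hold it. The interferon-stimulated response element (ISRE) type motif, GAAA and GAAA with any 2 bases between them, searched on both strands from 250 bases before to 50 after each start in RefSeq promoters of GRCm38.p6, was found in 3.44% of 32851 mouse promoters. Of the 44 promoters listed for 32 of the 43 tested TRIM genes, 10 (22.7%) held it. These belong to 9 genes, 6 of them in the chromosome 7 group, and the other 3 are Trim2, Trim21 and Trim26. The STAT6-type motif, TTC and GAA with 4 bases between them, was in 4 of the 44 (9.09%) against 6.95% of all promoters. None of the 10 promoters with an ISRE-type match held it, so matches of the 2 motifs did not overlap. A match is a sequence description and not a bound site, and copies of 1 ancestral promoter are not independent. In the lines below, each 5′ to 3′ on the gene's strand from 60 bases before to 30 from the start, capitals mark the match, which reads TTTC and TTTC where it lies on the other strand.
Trim34a, chr7:104244397-104244486, plus strand: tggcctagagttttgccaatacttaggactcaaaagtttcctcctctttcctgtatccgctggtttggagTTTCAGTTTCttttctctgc
Trim5, chr7:104288077-104288166, minus strand: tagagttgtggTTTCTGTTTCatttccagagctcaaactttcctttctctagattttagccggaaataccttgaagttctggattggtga
Trim12a, chr7:104315466-104315555, minus strand: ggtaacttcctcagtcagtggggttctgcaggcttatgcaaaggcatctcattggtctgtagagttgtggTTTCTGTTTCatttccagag
Trim12c, chr7:104353320-104353409, minus strand: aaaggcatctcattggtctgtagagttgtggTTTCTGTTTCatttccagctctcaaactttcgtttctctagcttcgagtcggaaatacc
Trim30a (the second of its starts in the table), chr7:104465164-104465253, minus strand: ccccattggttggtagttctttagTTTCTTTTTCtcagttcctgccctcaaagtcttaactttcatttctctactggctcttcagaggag
Trim30d, chr7:104507820-104507909, minus strand: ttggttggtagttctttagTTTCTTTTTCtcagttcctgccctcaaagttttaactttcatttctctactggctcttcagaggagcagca
Trim21, chr7:102565453-102565542, minus strand: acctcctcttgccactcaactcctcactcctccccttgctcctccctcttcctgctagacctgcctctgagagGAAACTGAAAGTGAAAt
The same stretch ending in TTTCTGTTTC recurs in Trim5, Trim12a and Trim12c at different distances from the annotated start, and Trim30a and Trim30d share the stretch around TTTCTTTTTC. Trim21 holds 2 overlapping matches just after its start. Of the 9 genes called lower under IL-27 against untreated, 4 have a promoter in the table, and none of them held an ISRE-type match. Trim59, Trim47 and Trim25 are given as the well-measured ones, with no capitals because the motif is not in their windows.
Trim59, chr3:69044713-69044802, minus strand: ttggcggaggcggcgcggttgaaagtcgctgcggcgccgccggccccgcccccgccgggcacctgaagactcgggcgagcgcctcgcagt
Trim47, chr11:116110206-116110295, minus strand: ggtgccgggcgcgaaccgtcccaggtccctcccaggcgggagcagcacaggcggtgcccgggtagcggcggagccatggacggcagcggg
Trim25, chr11:88999343-88999432, plus strand: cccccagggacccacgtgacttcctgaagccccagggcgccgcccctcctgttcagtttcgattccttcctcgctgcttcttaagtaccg

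None of the 9 genes with an ISRE-type match was called against untreated under IL-27, and Trim12a and Trim21 were called lower under IL-4, beside 29.2% and 25.0% of all genes called in either direction. Without IL-4 replicate 1 and untreated replicate 2, Trim26, Trim30a and Trim34a were called lower under IL-27, where 49.5% of all genes were called, and Trim12c, Trim30a and Trim34a were added to those lower under IL-4, where 46.4% were. Trim12a was at 12.5, 13.9 and 14.3 CPM in IL-27, 6.78, 7.94 and 10.0 CPM in IL-4 and 12.7, 9.97 and 14.9 CPM in untreated libraries. IL-4 values lay below all IL-27 values, and overlapped untreated values only where IL-4 replicate 3 met untreated replicate 2. It was 1.64-fold higher under IL-27 than under IL-4 (log2 0.72 ± 0.18, adjusted p = 0.0112). Against untreated it fell 1.52-fold under IL-4 (log2 -0.60 ± 0.18, adjusted p = 0.0379), a call lost on leaving out any library but IL-4 replicate 3 or untreated replicate 2 (adjusted p 0.0575 to 0.137) and with the 2 groups alone (0.101). IL-27 and untreated did not pass (log2 0.11 ± 0.18, adjusted p = 0.674), and this difference was -0.03 without untreated replicate 2.

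Trim30a, an interferon-inducible gene whose product lowers NF-kappa-B signalling in mouse macrophages through the adaptors TAB2 and TAB3, was at 36.1, 38.3 and 40.3 CPM in IL-27, 22.4, 39.4 and 37.1 CPM in IL-4 and 51.4, 33.1 and 50.5 CPM in untreated libraries. The low IL-4 value was replicate 1 and the low untreated value replicate 2. With all libraries the log2 differences from untreated of -0.23 ± 0.22 under IL-27 and -0.45 ± 0.22 under IL-4 did not pass (adjusted p = 0.458 and 0.173). Without this pair they were -0.42 and -0.41 and passed (adjusted p = 2.21e-05 and 0.000119), and the IL-4 difference also passed without untreated replicate 2 alone (log2 -0.62, adjusted p = 0.0433). Its copy Trim30d averaged 11.5 ± 0.667 CPM in IL-27, 8.99 ± 3.14 CPM in IL-4 and 11.3 ± 2.76 CPM in untreated libraries, and 8.29% of its 50-base stretches occur in its copies.

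Trim30c had few reads and was called lower under both cytokines. It had 1, 9 and 1 counts in IL-27 libraries, 4, 7 and 8 counts in IL-4 libraries and 46, 24 and 36 counts in untreated libraries. Every treated value lay below every untreated value. Trim30c reached the filter's minimum count of 10 in untreated libraries alone, so it was tested only through the group where it was high. A lower call was thus favoured in advance and is not support for a fall. The fitted log2 fold change was -3.27 ± 0.69 for IL-27 (adjusted p = 0.0055) and -2.57 ± 0.64 for IL-4 (adjusted p = 0.0151). At these counts the size is poorly set. Without IL-27 replicate 2 the IL-27 value was -5.03 (adjusted p = 0.0014) and a difference of -2.47 from IL-4 passed (adjusted p = 0.0420), and the IL-4 call was lost without IL-4 replicate 2 or untreated replicate 1 (adjusted p 0.0509 and 0.0591).

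Among the remaining genes of the group, Trim34a averaged 7.47 ± 1.08 CPM in IL-27, 8.23 ± 2.52 CPM in IL-4 and 12.0 ± 2.52 CPM in untreated libraries (log2 -0.69 ± 0.24 for IL-27 against untreated, adjusted p = 0.0586). This difference passed with DESeq2, with the 2 groups alone, and without IL-4 replicate 1, IL-4 replicate 2, untreated replicate 2 or the pair. Trim12c averaged 23.6 ± 1.48, 18.6 ± 3.00 and 24.6 ± 2.88 CPM in the same order (log2 -0.40 ± 0.14 for IL-4 against untreated, adjusted p = 0.0590). That one passed with DESeq2 and without IL-4 replicate 2, untreated replicate 2 or the pair. Trim5 averaged 4.78 ± 0.717 CPM in IL-27, 4.67 ± 1.26 CPM in IL-4 and 5.51 ± 0.865 CPM in untreated libraries, with overlapping values and adjusted p of 0.534 and 0.499 against untreated.

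The TIF1 chromatin regulators, which repress or activate transcription, are Trim24, Trim28, Trim33 and Trim66. None of the 4 passed against untreated under either cytokine, with median log2 fold changes of 0.07 under IL-27 and -0.23 under IL-4, and 1 was higher and 1 lower under IL-27 than under IL-4. Over all genes 29.2%, 25.0% and 39.8% were called in these comparisons. Without the pair, 0 of the 4 were called under IL-27 against untreated, and 1 was higher (Trim28) and 1 lower (Trim24) under IL-4, where 46.4% of all genes were called. Trim28, the corepressor KAP1 that brings the methyltransferase SETDB1 and HP1 proteins to zinc-finger sites, was at 140.0, 137 and 136 CPM in IL-27, 211, 167 and 171 CPM in IL-4 and 147, 167 and 137 CPM in untreated libraries. IL-4 values lay above IL-27 values, and untreated values spanned the gap. It was 1.33-fold lower under IL-27 than under IL-4 (log2 -0.41 ± 0.11, adjusted p = 0.0145), which was lost without IL-27 replicate 2 or IL-27 replicate 3 (adjusted p 0.0501 and 0.0530). Against untreated, IL-4 did not pass (log2 0.28 ± 0.11, adjusted p = 0.0916), but did without untreated replicate 2 (log2 0.37, adjusted p = 0.0338) and without the pair (log2 0.25, adjusted p = 0.000259).

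Trim24 (TIF1-alpha) was at 13.4, 12.4 and 12.2 CPM in IL-27, 9.89, 9.46 and 10.00 CPM in IL-4 and 12.5, 10.5 and 12.0 CPM in untreated libraries. IL-4 values were the lowest and IL-27 and untreated values overlapped. The 1.30-fold higher level under IL-27 than under IL-4 (log2 0.37 ± 0.12, adjusted p = 0.0258) was lost without IL-4 replicate 2 or 3 or any one of the IL-27 libraries (adjusted p 0.0569 to 0.0953). Under IL-4 against untreated it did not pass (log2 -0.26, adjusted p = 0.137), but did without the pair (log2 -0.33, adjusted p = 0.0401). Trim33 (TIF1-gamma), which works with SMAD proteins, was at 51.3, 51.0 and 52.9 CPM in IL-27, 32.7, 50.7 and 45.3 CPM in IL-4 and 53.9, 45.7 and 53.1 CPM in untreated libraries. Its low IL-4 value was replicate 1, and no comparison passed (adjusted p 0.176 to 0.919).

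Trim59, a TRIM protein anchored in the endoplasmic reticulum membrane, had the largest called fold change of the well-measured genes. It was at 2.48, 2.90 and 2.52 CPM in IL-27, 9.59, 18.2 and 18.3 CPM in IL-4 and 13.0, 6.29 and 15.7 CPM in untreated libraries. All IL-27 values lay below the lowest of the others, and the lowest IL-4 and untreated values were replicate 1 and replicate 2 of those groups. Under IL-27 it fell 4.43-fold against untreated (log2 -2.15 ± 0.35, adjusted p = 0.00138) and 5.84-fold against IL-4 (log2 -2.55 ± 0.36, adjusted p = 0.000297). Without the pair the log2 values were -2.45 and -2.80. Between IL-4 and untreated the log2 difference was 0.40 ± 0.33 with all libraries (adjusted p = 0.417) and 0.35 without the pair (adjusted p = 0.0394). The other membrane-anchored gene tested, Trim13, did not pass in any comparison with all libraries. Trim13 averaged 8.78 ± 0.783 CPM in IL-27, 6.33 ± 1.29 CPM in IL-4 and 8.07 ± 1.75 CPM in untreated libraries. Its difference between IL-27 and IL-4 (log2 0.47, adjusted p = 0.0948) passed without untreated replicate 2.

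Trim47 was at 20.6, 18.6 and 17.0 CPM in IL-27, 46.1, 32.7 and 37.7 CPM in IL-4 and 28.6, 41.7 and 30.2 CPM in untreated libraries. IL-27 values were the lowest, and the highest IL-4 and untreated values were those of the pair. It fell 1.79-fold under IL-27 against untreated (log2 -0.84 ± 0.17, adjusted p = 0.00499) and 2.08-fold against IL-4 (log2 -1.05 ± 0.17, adjusted p = 0.000864). Trim47 and Trim65 are neighbours whose exons overlap on the same strand, over 8.23% of Trim47, and 4.49% of the 50-base stretches of Trim65 occur in Trim47, so a read there could count for either. Under IL-4 against untreated Trim47 did not pass (log2 0.21, adjusted p = 0.409), but did without the pair (log2 0.26, adjusted p = 0.0311). How reads in the overlap were counted is not stated, so the falls of Trim47 and Trim65 under IL-27 may not be fully separate measurements.

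Trim16, a RING-less member tied to galectins in the clearance of damaged lysosomes, was at 7.01, 6.48 and 7.60 CPM in IL-27, 7.28, 6.69 and 5.73 CPM in IL-4 and 11.2, 13.7 and 13.6 CPM in untreated libraries. Both treated groups lay below all untreated values and overlapped each other. It fell 1.83-fold under IL-27 (log2 -0.87 ± 0.15, adjusted p = 0.00153) and 1.96-fold under IL-4 (log2 -0.97 ± 0.15, adjusted p = 0.00099), both against the same untreated libraries. Trim16 shares 5.19% of its exon bases with Fbxw10 on the same strand, which averaged 0.740 ± 0.216 CPM in IL-27, 1.89 ± 0.878 CPM in IL-4 and 1.52 ± 0.312 CPM in untreated libraries.

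The COS box, a motif that binds microtubules, is carried by Trim36 and Trim46 among the genes tested. Trim36 was at 16.2, 17.0 and 16.2 CPM in IL-27, 23.4, 29.7 and 26.6 CPM in IL-4 and 25.3, 21.5 and 27.7 CPM in untreated libraries. The IL-27 values were the lowest, and the others overlapped. It fell 1.51-fold under IL-27 against untreated (log2 -0.59 ± 0.13, adjusted p = 0.00608) and 1.61-fold against IL-4 (log2 -0.69 ± 0.13, adjusted p = 0.0017). Trim46, known from the axon initial segment, was at 3.11, 1.77 and 2.05 CPM in IL-27, 1.09, 0.350 and 1.32 CPM in IL-4 and 0.834, 0.873 and 1.23 CPM in untreated libraries. Its IL-27 values were the highest. It was 2.51-fold higher under IL-27 than under IL-4 (log2 1.33 ± 0.45, adjusted p = 0.0376), which was lost without any one of the IL-27 libraries, IL-4 replicate 2 or untreated replicate 1 (adjusted p 0.0507 to 0.1455). Against untreated the IL-27 difference did not pass (log2 1.23 ± 0.45, adjusted p = 0.0620), but did without IL-4 replicate 2 (adjusted p = 0.0171), with DESeq2 (0.0233), with the 2 groups alone (0.0181) and without the pair (0.0384). Its exons overlap Krtcap2 on the opposite strand over 6.30% of their bases, and without a stated counting strand the level of Trim46 is uncertain. Krtcap2 averaged 44.2 ± 2.99 CPM in IL-27, 42.8 ± 2.20 CPM in IL-4 and 34.6 ± 3.58 CPM in untreated libraries. It was higher under IL-27 than in untreated cells (log2 0.35 ± 0.10, adjusted p = 0.0281). That call was lost without IL-27 replicate 2 or 3 or untreated replicate 1 or 3 (adjusted p 0.0945 to 0.1175).

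Trim39 and Trim37 differed between the cytokines in opposite directions. Trim39 was at 19.0, 18.1 and 18.2 CPM in IL-27, 10.2, 12.3 and 11.4 CPM in IL-4 and 15.1, 14.2 and 16.8 CPM in untreated libraries. The 3 groups did not overlap. It was 1.63-fold higher under IL-27 than under IL-4 (log2 0.70 ± 0.11, adjusted p = 0.000812) and fell 1.36-fold under IL-4 against untreated (log2 -0.44 ± 0.11, adjusted p = 0.0191). The fall was lost without IL-4 replicate 3 or untreated replicate 3 (adjusted p 0.0566 and 0.0766) and with the 2 groups alone (0.0737), and the IL-27 difference from untreated did not pass (log2 0.26 ± 0.11, adjusted p = 0.111). Trim37, whose human counterpart is mutated in mulibrey nanism, was at 28.0, 25.2 and 29.3 CPM in IL-27, 34.1, 39.5 and 36.1 CPM in IL-4 and 30.3, 24.0 and 31.0 CPM in untreated libraries. IL-4 values were the highest. It was 1.33-fold lower under IL-27 than under IL-4 (log2 -0.41 ± 0.12, adjusted p = 0.0225), which was lost without replicate 1 or 2 of IL-27 or replicate 2 or 3 of IL-4 (adjusted p 0.0508 to 0.0921). Against untreated, IL-4 did not pass (log2 0.36 ± 0.12, adjusted p = 0.0554), but did without IL-4 replicate 1 (adjusted p = 0.0384), with DESeq2 (0.0293) and without the pair (0.0070).

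**Figure D4:**
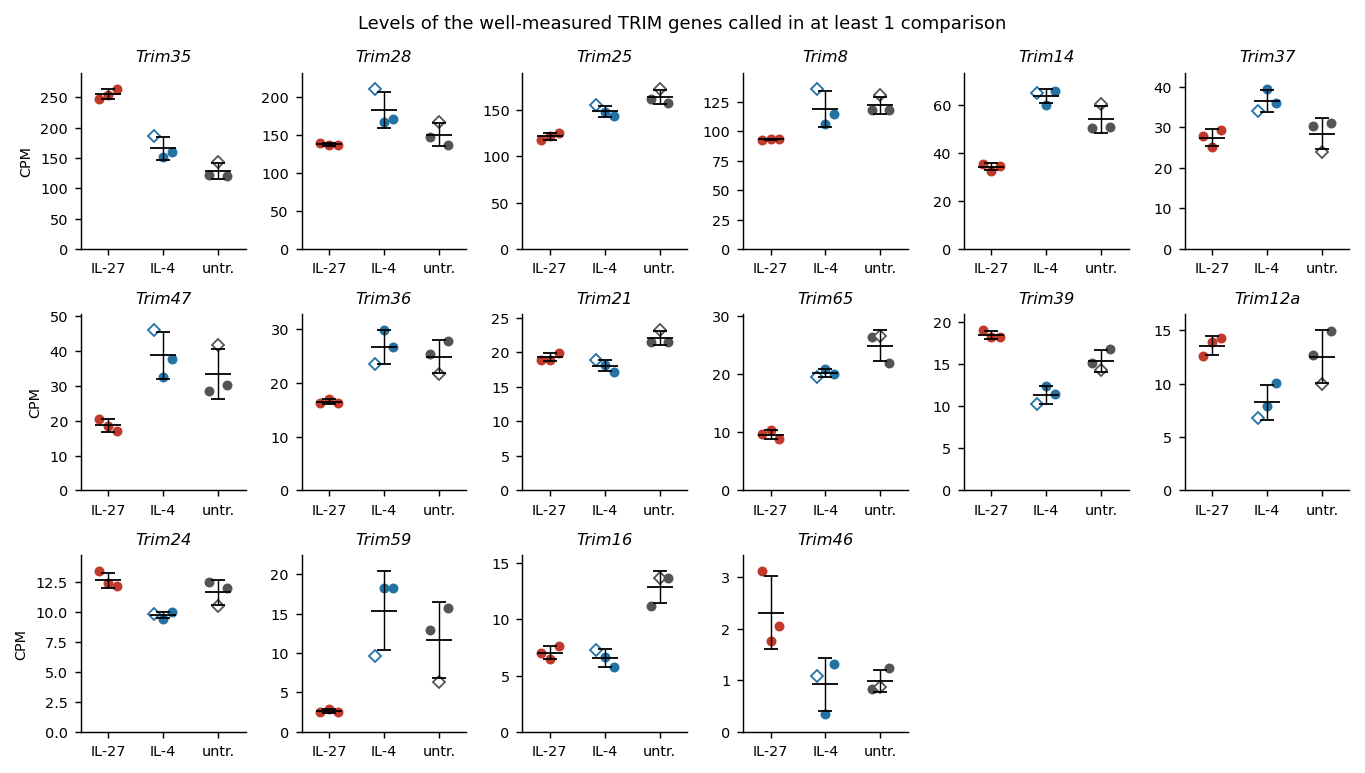
Level (CPM) of each well-measured TRIM gene called in at least 1 comparison, with points for the 3 libraries of the IL-27, IL-4 and untreated groups and bars for mean ± SD (n = 3), open diamonds marking IL-4 replicate 1 and untreated replicate 2. The IL-27 points of Trim35, at 248 to 264 CPM, lie above its other points, those of Trim59, at 2.48 to 2.90 CPM, lie below its other points, and the diamonds lie away from their groups in several panels.

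Abundant members that did not pass in any comparison with all libraries include Trim44, at 102 ± 5.46 CPM in IL-27, 101 ± 10.3 CPM in IL-4 and 91.1 ± 7.76 CPM in untreated libraries, and Trim41, at 64.9 ± 2.08, 60.7 ± 10.7 and 78.0 ± 11.4 CPM. Trim11 averaged 33.9 ± 2.10 CPM in IL-27, 30.1 ± 5.22 CPM in IL-4 and 34.8 ± 6.42 CPM in untreated libraries. Without the pair, under IL-4 against untreated Trim44 passed higher (log2 0.17, adjusted p = 0.0297) and Trim41 lower (log2 -0.37, adjusted p = 0.000104), and Trim41 and Trim11 were higher under IL-27 than under IL-4 (log2 0.23 and 0.31, adjusted p = 0.00374 and 0.00422). Besides Trim30c, the genes tested at a mean under 1 CPM were Trim6, Trim7, Trim34b and Trim66, and none of these passed. The 10 genes that were not tested, Trim9, Trim10, Trim15, Trim30b, Trim38, Trim43a, Trim43c, Trim67, Trim69 and Trim72, had at most 6 counts in any library, which is too few to compare groups at this depth. They include Trim72, the membrane repair protein of muscle, and Trim9 and Trim67, which are known from neurons.

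Genes of the TRIM type that carry other symbols were read from the same fit. Of 4 tested, 1 was higher, 2 lower and 1 did not pass under IL-27 against untreated, and 1 higher, 1 lower and 2 did not pass under IL-4, beside 29.2% and 25.0% of all genes called. Without the pair the counts were 1 higher and 2 lower under each cytokine, beside 49.5% of all genes for IL-27 and 46.4% for IL-4. Mefv, which encodes the inflammasome protein pyrin, averaged 4.54 ± 0.896 CPM in IL-27, 11.4 ± 1.33 CPM in IL-4 and 25.4 ± 1.12 CPM in untreated libraries. It fell under IL-27 (log2 -2.48 ± 0.16, adjusted p = 4.52e-06) and under IL-4 (log2 -1.15 ± 0.15, adjusted p = 0.000446). Pml, the scaffold of nuclear bodies, fell under IL-27 to 22.6 ± 1.76 CPM, against 39.9 ± 1.16 CPM in untreated libraries (log2 -0.82 ± 0.12, adjusted p = 0.000628), and averaged 34.9 ± 5.03 CPM under IL-4, which did not pass (log2 -0.19, adjusted p = 0.272) but did without the pair (log2 -0.28, adjusted p = 0.0154). Mid1, a COS-box microtubule ligase, rose under IL-27 to 4.98 ± 0.404 CPM (log2 1.13 ± 0.21, adjusted p = 0.00284) and under IL-4 to 4.17 ± 0.785 CPM (log2 0.88 ± 0.21, adjusted p = 0.0132), against 2.27 ± 0.474 CPM in untreated libraries. The IL-4 rise was lost without untreated replicate 3 (adjusted p = 0.0506).

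Genes of RNA and DNA sensing, the sensors and adaptors on which several TRIM ligases act, gave 1 higher, 7 lower and 8 not passed of 16 tested under IL-27 against untreated, with a median log2 fold change of -0.28 beside 0.00 over all genes, of which 14.0% were higher and 15.1% lower. The lower ones were Ddx58, Dhx58, Mavs, Sting1, Ikbke, Irf7 and Rnf135, of which Dhx58 was lost without untreated replicate 2 or any one of the IL-27 libraries (adjusted p 0.0611 to 0.0883). Under IL-4 the counts were 0 higher, 5 lower (Ddx58, Ikbke, Irf7, Traf3 and Tab2) and 11 not passed, with a median of -0.19 beside -0.01 over all genes, of which 12.9% were higher and 12.0% lower. The IL-4 call of Irf7 was lost on leaving out any library but IL-4 replicate 2 or untreated replicate 1 (adjusted p 0.0527 to 0.133). Without the pair they were 2 higher and 8 lower under IL-27, and 1 higher and 10 lower under IL-4, beside 49.5% and 46.4% of all genes called. Zc3hav1, the antiviral protein that works with Trim25, rose under IL-27 to 364 ± 4.53 CPM, beside 140.2 ± 10.0 CPM in IL-4 and 157 ± 7.82 CPM in untreated libraries (log2 1.21 ± 0.08 against untreated, adjusted p = 6.07e-06), while Trim25 itself fell. Ddx58, the RNA sensor RIG-I that Trim25 ubiquitinates, fell to 13.8 ± 0.442 CPM under IL-27 and 17.1 ± 2.88 CPM under IL-4, against 26.2 ± 1.93 CPM in untreated libraries (log2 -0.92 ± 0.13 and -0.61 ± 0.13, adjusted p = 0.000588 and 0.00719). Ifih1, the target of Trim65, averaged 18.0 ± 1.18 CPM in IL-27, 18.1 ± 2.36 CPM in IL-4 and 23.1 ± 2.79 CPM in untreated libraries. It did not pass under IL-27 (log2 -0.37 ± 0.13, adjusted p = 0.0649) or IL-4 (log2 -0.35 ± 0.13, adjusted p = 0.0845), but passed under both without the pair (adjusted p = 0.000251 and 0.0111) and without untreated replicate 2 alone, and under IL-27 also without IL-4 replicate 1 (adjusted p 0.0292 and 0.0317 for IL-27 and 0.0405 for IL-4).

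Mavs, the adaptor of both RNA sensors, fell to 39.2 ± 1.61 CPM under IL-27, against 55.6 ± 6.82 CPM in untreated libraries (log2 -0.50 ± 0.13, adjusted p = 0.0131), and Sting1 to 24.7 ± 1.62 CPM, against 34.3 ± 2.48 CPM (log2 -0.47 ± 0.11, adjusted p = 0.0109). These calls were lost without IL-27 replicate 3 for Mavs (adjusted p = 0.0562) and without IL-27 replicate 2 for Sting1 (adjusted p = 0.0503). Ikbke, a kinase that acts beneath the adaptors, fell to 30.6 ± 3.80 CPM under IL-27 and 34.7 ± 3.79 CPM under IL-4, against 83.6 ± 13.6 CPM in untreated libraries (log2 -1.45 ± 0.15 and -1.27 ± 0.15, adjusted p = 6.45e-05 and 0.000186). Tab2, one of the adaptors acted on by Trim30a, averaged 139.95 ± 4.48 CPM in IL-27, 121 ± 5.38 CPM in IL-4 and 146 ± 6.58 CPM in untreated libraries. Its IL-4 fall (log2 -0.28 ± 0.08, adjusted p = 0.0258) was lost without untreated replicate 1 or 3, IL-4 replicate 3 or IL-27 replicate 2 (adjusted p 0.0508 to 0.0984).

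The partners of Trim28 in silencing gave 0 higher, 3 lower and 6 not passed of 9 tested under IL-27 against untreated (median log2 -0.16 beside 0.00 over all genes, of which 14.0% were higher and 15.1% lower), and 1 higher, 1 lower and 7 not passed under IL-4 (median log2 0.17 beside -0.01 over all genes, of which 12.9% were higher and 12.0% lower). Without the pair the counts were 0 higher and 4 lower under IL-27, and 5 higher and 1 lower under IL-4, beside 49.5% and 46.4% of all genes called. Cbx5, the heterochromatin protein HP1-alpha, averaged 27.2 ± 1.77 CPM in IL-27, 95.6 ± 15.5 CPM in IL-4 and 42.2 ± 7.71 CPM in untreated libraries. It rose under IL-4 (log2 1.18 ± 0.16, adjusted p = 0.000503) and fell under IL-27 (log2 -0.63 ± 0.16, adjusted p = 0.0134), the fall being lost without IL-27 replicate 1, IL-27 replicate 2 or untreated replicate 1 (adjusted p 0.0518 to 0.0577). Setdb1, the histone H3 lysine methyltransferase that Trim28 recruits, fell under IL-27 to 45.6 ± 1.99 CPM, against 60.0 ± 1.43 CPM in untreated libraries (log2 -0.40 ± 0.08, adjusted p = 0.0047), and averaged 67.7 ± 2.37 CPM under IL-4 (adjusted p = 0.148, and 0.0142 without the pair). The chromatin remodeller Chd4 fell under IL-27 to 339.8 ± 8.75 CPM, against 572 ± 39.4 CPM in untreated libraries (log2 -0.75 ± 0.08, adjusted p = 0.000116). Its relative Chd3 fell under IL-4 to 83.0 ± 13.6 CPM, against 163 ± 24.5 CPM in untreated libraries (log2 -0.98 ± 0.14, adjusted p = 0.000598).

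**Figure D5:**
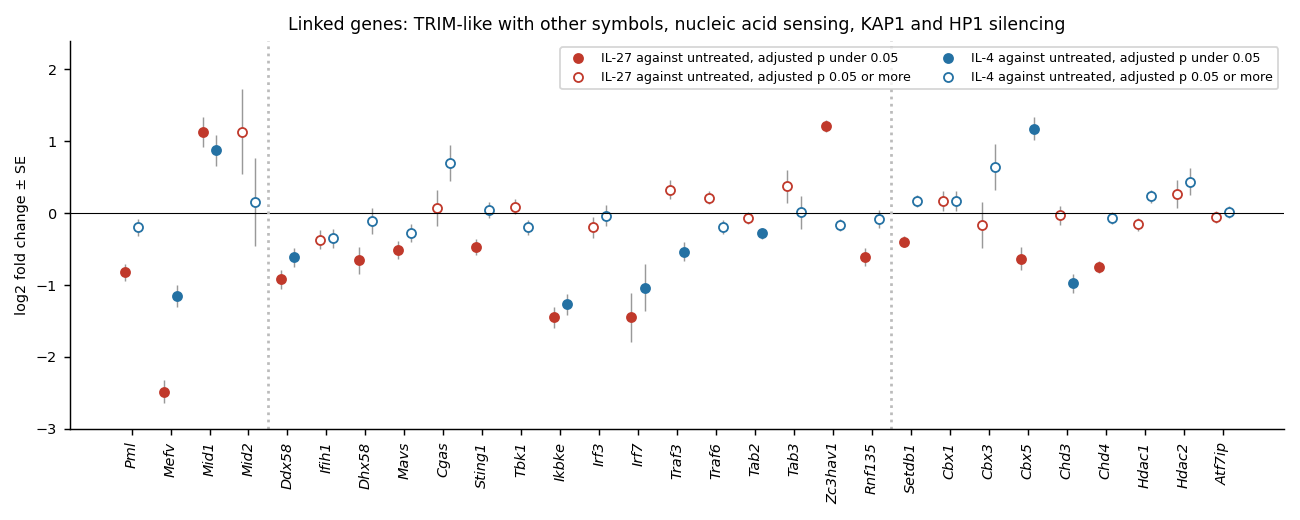
Log2 fold change ± SE of genes linked to the TRIM family, for IL-27 against untreated (left of each pair) and IL-4 against untreated (right), in the order TRIM-like genes with other symbols, nucleic acid sensing, and KAP1 and HP1 silencing, with filled points for an adjusted p under 0.05. Mefv is lowest under IL-27 at -2.48, Zc3hav1 highest at 1.21, and Cbx5 lies on opposite sides of 0 under the 2 cytokines.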

How the data were processed

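PolyA RNA of 9 macrophage libraries was sequenced, per the labels. The deposited counts are whole reads per gene for 16200 genes, and the deposited FPKM values are the authors' scaling of them by gene length and library total. The submitters' processing notes name fastp, HISAT2, HTSeq and GRCm39, and do not give the strand setting or how shared reads were counted. Counts of all 9 libraries were fitted together with edgeR 4.0.16 (R 4.3.3) with a term for group, TMM factors, genes kept by filterByExpr at a minimum count of 10, and quasi-likelihood tests with Benjamini-Hochberg adjustment over 12587 genes. Genes with an adjusted p under 0.05 were called. Levels are TMM-normalised CPM (mean ± SD, n = 3). Standard errors are approximate, from dividing each fold change (log2) by the root of its F statistic. Deviations from group means were taken on log2 CPM, prior count 2. The procedure was tested on simulated data.

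Genes are named with a value in every library if they are well measured and have an adjusted p under 0.05 with a ratio of group means of at least 1.5 in some comparison, or if they belong to a panel (Trim8, Trim14, Trim21, Trim24, Trim25, Trim27, Trim28, Trim30a, Trim32, Trim33, Trim35, Trim56 and Trim59). Trim3, Trim30c and Trim37 were added after their values were seen. The members and lists were chosen with earlier results of these data known. Overlaps, GC content and shared stretches of 50 bases come from GENCODE M21 on GRCm38, by gene symbol, and no coordinates were carried to the build of the files. Promoter sequences are RefSeq's, on GRCm38.p6, and another motif searched in them is not reported here. Same-numbered libraries of different groups did not deviate together over all genes (r = -0.43 to 0.25), so replicate numbers were not used to pair them. DESeq2 1.42.0 and other settings were tried as alternatives.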

Additional observations from a re-analysis of the deposited data

How the results depend on the processing

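Of 30 calls among the TRIM genes named with values, 17 held at the same direction under all 16 alternatives, that of Trim30c under IL-27 against untreated held under the 15 that tested it, 12 were lost under at least 1, and 0 changed sign. Calls of TRIM genes under IL-4 against untreated were the least stable. Higher calls numbered 2 with DESeq2, 0 with the 2 groups alone, 0 with replicate number as a block, and 7 without IL-4 replicate 1 and untreated replicate 2. Lower calls numbered 2, 3 and 13 in the last 3 of these. The share of all genes called moved too, from 25.0% with all libraries to 30.5%, 17.4%, 18.3% and 46.4% in these settings. Leaving out 1 library at a time gave 0 to 3 higher and 2 to 7 lower, with 18.1% to 28.7% of all genes called. Under IL-27 against untreated, higher calls numbered 2 with DESeq2, with the 2 groups alone and without the pair. Calls ranged over 1 to 2 higher and 8 to 11 lower with 1 library left out. Of all genes, 35.2%, 33.1% and 49.5% were called in the first 3 settings, and 20.3% to 36.1% with 1 library left out. Between IL-27 and IL-4 higher calls numbered 10 without the pair, where 58.3% of all genes were called. With 1 library left out there were 3 to 6 higher and 6 to 9 lower, and 30.3% to 44.5% of all genes were called. The block left IL-27 against untreated at 1 higher and 9 lower, with 23.0% of all genes called. It left IL-27 against IL-4 at 4 higher and 8 lower, with 33.5% of all genes called. Since same-numbered libraries share only a number, the block says nothing of effect size. DESeq2 size factors in the edgeR fit left all counts as they were.

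Some differences that were not called changed sign (log2). Against untreated, leaving out 1 library at a time gave -0.030 to 0.26 for Trim12a under IL-27, -0.053 to 0.066 for Trim33 under IL-27, -0.16 to 0.016 for Trim37 under IL-27, -0.46 to 0.30 for Trim46 under IL-4 and -0.14 to 0.036 for Trim8 under IL-4. Between IL-27 and IL-4 it gave -0.0037 to 0.36 for Trim30a and -0.025 to 0.13 for Trim56. Without the pair, Trim12a was -0.030 and Trim33 -0.053 under IL-27 against untreated, and Trim30a -0.0099 between the cytokines. The cause was not tested. Depth limits the 10 genes with at most 6 counts in a library and Trim30c.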

Other observations

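The gene lengths implied by dividing deposited counts by FPKM values were 44811 bases for Trim9, 15776 bases for Trim2 and 15161 bases for Trim66. The FPKM of these genes is therefore low for their counts: Trim2 had 2.69 ± 0.746 CPM but 0.168 FPKM in IL-27 libraries, 1.90 ± 0.260 CPM and 0.124 FPKM in IL-4 libraries, and 2.32 ± 0.0936 CPM and 0.147 FPKM in untreated libraries (mean ± SD, n = 3 each).

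Under IL-4 against untreated 14 TRIM genes were called without IL-4 replicate 1 and untreated replicate 2 and not with all 9 libraries, among them Trim3, Trim12c, Trim30a, Trim34a and Trim47. Under IL-27 against untreated these were Trim26, Trim30a, Trim34a and Trim46, and between the cytokines Trim3, Trim11, Trim12c, Trim34a, Trim41 and Trim62. Of all genes, 46.4%, 49.5% and 58.3% were called without the pair in these comparisons, against 25.0%, 29.2% and 39.8% with all libraries.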
